A study of Homo sapiens with 40 samples.

Results

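TYW3, CRYZ, PUS7L, ZNF717, ZNF283, MMADHC, TXNRD2 and LLPH are 8 protein-coding genes, of 60504 genes in the deposited table, whose RNA lay near 0 or well below the unedited level in every library of an edited line, far from the gene that was edited. They were selected on those TPM values, the ones given here, and for lying away from the edited gene. The level of each gene in its own line is therefore described here without a test. The own line of a gene is the edited line with the lowest ratio of its mean to the WT mean. RNA was measured in 40 bulk libraries of human microglia-like cells (hMGLs), macrophage-type cells grown to resemble the resident immune cells of the brain. The parent cells were H9, a widely used line of human embryonic stem cells. Unedited cells (WT) gave 7 libraries, as did each of TREM2-R47H, SORL1-KO and SORL1-A528T, while TREM2-KO gave 8, and CD33-SNP and INPP5D-SNP gave 2 each.

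Edits were made with CRISPR/Cas9 from the plasmid PX458 and a single-stranded repair oligo, and every edit was homozygous. TREM2-KO is a knockout of the lipid-sensing receptor TREM2, and TREM2-R47H and SORL1-A528T carry amino acid changes in TREM2 and in the sorting receptor SORL1. SORL1-KO carries the stop codon R744X per the labels. CD33-SNP and INPP5D-SNP carry the disease-associated allele of a polymorphism at each gene, and H9 itself was heterozygous at the one in INPP5D. All 7 groups were differentiated alike. Blood progenitors were collected on day 11, grown for 28 days with IL-34 at 100 ng/mL, TGF-β1 at 50 ng/mL and M-CSF at 25 ng/mL, and given CD200 and CX3CL1 at 100 ng/mL each for the last 3 days. The labels describe sorted clones but give neither the number of clones behind a line nor whether libraries of a group are separate cultures, so the spread behind each p-value is that between libraries and may be technical. What a clone carries beside its edit cannot be told apart from the edit.

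As background, these genes belong to basic cell functions rather than to the microglial programme. TYW3 and PUS7L act on RNA: TYW3 is a methyltransferase that helps build wybutosine, a bulky base beside the anticodon of phenylalanine tRNA, and PUS7L is a relative of the pseudouridine synthase PUS7. LLPH is a small nucleolar protein of large ribosomal subunit assembly. CRYZ (zeta-crystallin) is an NADPH-dependent quinone reductase, and TXNRD2 is the thioredoxin reductase of mitochondria. MMADHC routes cobalamin (vitamin B12) inside the cell towards its cytosolic and mitochondrial enzymes. ZNF717 and ZNF283 are KRAB zinc finger proteins, a family that binds DNA and recruits the corepressor TRIM28. Many mammalian genes share a start region with a gene on the opposite strand (a head-to-head pair), and that arrangement recurs in the results below.

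Shared starts are described here for 5 of the 8 genes, TYW3, CRYZ, PUS7L, LLPH and ZNF283, each with an annotated start within 1 kb of that of an expressed gene on the opposite strand. Such a partner was present for 20.7% of the 14744 expressed genes with a known position (3047 genes). The partners are CRYZ for TYW3 and the reverse, IRAK4 for PUS7L, LLPH-DT for LLPH and LYPD5 for ZNF283. The start windows of these 4 pairs, from the RefSeq promoter table (GRCh38.p14), are shown because they are the sequence that both genes of a pair have in common. Each runs 5′ to 3′ on the strand of the first gene named, from 250 bases before its start to 50 after it, and the capitals mark the bases from one annotated start to the other.
CRYZ and TYW3, chr1:74733001-74733300, minus strand: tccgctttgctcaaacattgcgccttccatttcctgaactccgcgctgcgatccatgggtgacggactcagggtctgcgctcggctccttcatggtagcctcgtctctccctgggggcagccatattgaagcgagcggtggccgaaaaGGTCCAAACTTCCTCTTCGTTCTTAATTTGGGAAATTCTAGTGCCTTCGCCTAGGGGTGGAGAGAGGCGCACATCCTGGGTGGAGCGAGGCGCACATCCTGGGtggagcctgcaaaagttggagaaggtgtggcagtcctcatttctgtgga
IRAK4 and PUS7L, chr12:43758701-43759000, plus strand: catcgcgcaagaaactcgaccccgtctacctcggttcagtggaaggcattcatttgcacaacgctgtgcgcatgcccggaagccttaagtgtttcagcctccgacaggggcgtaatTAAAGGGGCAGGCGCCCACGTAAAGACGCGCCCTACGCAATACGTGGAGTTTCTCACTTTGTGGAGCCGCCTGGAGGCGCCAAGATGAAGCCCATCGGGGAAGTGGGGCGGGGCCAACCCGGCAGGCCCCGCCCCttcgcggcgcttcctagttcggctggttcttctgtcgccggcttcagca
LLPH and LLPH-DT, chr12:66130701-66131000, minus strand: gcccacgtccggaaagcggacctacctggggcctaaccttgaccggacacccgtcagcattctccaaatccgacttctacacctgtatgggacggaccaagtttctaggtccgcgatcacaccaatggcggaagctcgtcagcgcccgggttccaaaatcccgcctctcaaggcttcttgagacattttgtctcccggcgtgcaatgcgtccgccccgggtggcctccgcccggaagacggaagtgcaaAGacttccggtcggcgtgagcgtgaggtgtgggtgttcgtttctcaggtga
ZNF283 and LYPD5, chr19:43827071-43827370, plus strand: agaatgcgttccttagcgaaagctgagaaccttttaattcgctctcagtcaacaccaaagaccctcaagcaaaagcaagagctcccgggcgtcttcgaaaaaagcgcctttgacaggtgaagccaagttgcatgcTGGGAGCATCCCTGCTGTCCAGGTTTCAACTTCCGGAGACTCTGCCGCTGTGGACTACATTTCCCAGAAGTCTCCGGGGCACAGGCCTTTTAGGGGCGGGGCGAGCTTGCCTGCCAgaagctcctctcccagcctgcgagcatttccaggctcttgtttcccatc

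The table had an entry for 6 of the 8 genes. It had none for TYW3 and PUS7L, whose starts lie inside the windows of CRYZ and IRAK4. The distance between the starts was 102 bp for CRYZ and TYW3, 134 bp for IRAK4 and PUS7L, 1 bp for LLPH and LLPH-DT and 115 bp for ZNF283 and LYPD5, with RefSeq used for the first gene and GENCODE for the second. CpG dinucleotides numbered 17, 28, 27 and 13 in that order, against a median of 14 over all 35116 windows of the table. Both strands were searched for 6 motifs. The ETS motif CCGGAA was found in 3 of the 4 windows (IRAK4 with 1 match, LLPH with 3, ZNF283 with 1), against 17.2% of all windows. The GC box GGGCGG was found in 3 of 4, the exception being CRYZ, against 45.0% of all, and the CCAAT box (CCAAT) in the LLPH window alone of the 4, against 34.6% of all. The YY1 motif (AAGATGGC, 2.89% of all windows), the TATA box (TATAAA, 11.5%) and the E box (CACGTG, 7.26%) had no match in these 4 windows. The CRYZ window matched none of the 6 motifs, which says only that those letters are not in it. A match is a string of letters and was not tested as a binding site. No motif of the 6 contains another.

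TYW3 (ENSG00000162623; GRCh38, chromosome 1, 74733152 to 74766678, plus strand) was at 0.06, 0.08, 0, 0.1, 0.1, 0.09, 0.08 and 0.06 TPM in TREM2-KO libraries 1 to 8, where TPM is a level scaled for gene length and for the total of the library. WT ranged from 5.55 to 9.07 TPM with a median of 7.68. All 8 TREM2-KO libraries therefore lay far below WT and below every one of the other 32 libraries. The means were 0.0713 ± 0.0327 TPM (SD, n = 8) and 7.52 ± 1.22 TPM (SD, n = 7), so the line stood at 0.948% of WT. On the scale of log2(TPM + 1), used for all log2 changes here, the difference was -2.98 ± 0.13 (SE). In bulk libraries, fewer cells that make an RNA and less of it per cell cannot be told apart. The other 5 lines overlapped WT, with means from 5.33 TPM in INPP5D-SNP to 8.13 TPM in TREM2-R47H, and neighbours in the order of the group means overlapped down to TREM2-KO.

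CRYZ (ENSG00000116791; chromosome 1, 74705482 to 74733408, minus strand), whose annotated 5′ end overlaps that of TYW3 on the other strand, was at 0, 0, 0.12, 0.36, 0.08, 0, 0 and 0.22 TPM in the same 8 libraries. WT ranged from 2.53 to 4.23 TPM with a median of 3.71. No TREM2-KO library came near the WT range, and 4 of the 8 are listed at 0. The mean was 0.0975 ± 0.132 TPM (SD, n = 8) against 3.51 ± 0.680 TPM (SD, n = 7), which is 2.77% of WT and a log2 change of -2.03 ± 0.11 (SE). The other lines had means of 2.87 to 3.29 TPM, all overlapping WT. In TREM2-KO, 0.168% of the 14855 genes tested (25 genes) lay below every library of all other groups, and TYW3 and CRYZ are among them by choice. The genes were tested where at least 1 TPM was reached in at least 7 libraries, and all 8 genes described here passed this.

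PUS7L (ENSG00000129317; chromosome 12, 43718993 to 43758817, minus strand) was at 0.02, 0.02, 0.01, 0, 0.13, 0.01 and 0.04 TPM in TREM2-R47H libraries 1 to 7. WT ranged from 1.93 to 3.9 TPM with a median of 2.76, so the groups were far apart. The mean was 0.0329 ± 0.0446 TPM (SD, n = 7) against 2.88 ± 0.809 TPM (SD, n = 7), or 1.14% of WT, and the log2 change was -1.88 ± 0.18 (SE). In TREM2-R47H, 0.289% of genes tested (43) lay below every library of all other groups. Outside its own line PUS7L varied widely: SORL1-A528T libraries ran from 1.11 to 4.49 TPM, and the SORL1-KO mean of 1.74 ± 0.440 TPM (SD, n = 7) was 60.5% of WT.

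LLPH (ENSG00000139233; chromosome 12, 66116555 to 66130768, minus strand) was at 15.78 and 17.52 TPM in the 2 INPP5D-SNP libraries. WT ranged from 34.7 to 41.87 TPM with a median of 39.25 and a mean of 38.9 ± 2.77 TPM (SD, n = 7). The 2 libraries stood at 40.6% and 45.1% of the WT mean, and the log2 change was -1.17 ± 0.18 (SE). Both were below the other 38 libraries, of which the lowest was at 23.68 TPM. That library is TREM2-KO 8, and TREM2-KO 4 was beside it at 23.76 TPM, whereas the other 6 TREM2-KO libraries lay between 37.93 and 41.26 TPM.

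TXNRD2 (ENSG00000184470; chromosome 22, 19875517 to 19941992, minus strand) was at 0.17 and 0.9 TPM in INPP5D-SNP. WT ranged from 5.71 to 13.95 TPM with a median of 10.23. Both INPP5D-SNP libraries were below all 38 others, and their mean was 5.36% of the WT mean of 9.97 ± 3.47 TPM (SD, n = 7), with a log2 change of -2.81 ± 0.37 (SE). In INPP5D-SNP, 0.0673% of genes tested (10) lay below every other library, which is easier to meet with 2 libraries than in the larger groups. The spread of TXNRD2 within other groups was large. CD33-SNP libraries 1 and 2 were at 12.45 and 1.74 TPM, the second being 17.4% of the WT mean, and in WT the libraries numbered 5 and 6 were at 5.71 and 5.81 TPM while the other 5 lay between 8.22 and 13.95 TPM. Libraries 5 and 6 were also the lowest of TREM2-R47H and of SORL1-A528T.

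MMADHC (ENSG00000168288; chromosome 2, 149569634 to 149587816, minus strand) was the most abundant of the 8 by TPM. SORL1-KO ranged from 48.86 to 54.81 TPM with a median of 51.51, and WT from 90.1 to 110.17 TPM with a median of 94.0. All 7 SORL1-KO libraries stood between 51.0% and 57.2% of the WT mean. The means were 51.6 ± 2.27 TPM (SD, n = 7) and 95.9 ± 6.67 TPM (SD, n = 7), and the log2 change was -0.88 ± 0.05 (SE). The other 5 lines had means of 100.4 to 102.7 TPM, and all overlapped WT. A search of annotated transcripts for near copies (at least 90% identity over at least 400 bases) found none for the other 7 genes. For MMADHC it found the processed pseudogene MMADHCP2, listed at 0 TPM on average in WT and in SORL1-KO, and the overlapping antisense gene MMADHC-DT at 0.261 TPM in WT.

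ZNF717 (ENSG00000227124; chromosome 3, 75678660 to 75785583, minus strand) was at 0, 0, 0.08, 0.06, 0.08, 0 and 0.12 TPM in SORL1-KO libraries 1 to 7. WT ranged from 1.03 to 2.81 TPM with a median of 1.8. Every SORL1-KO library was below all others, and the mean of 0.0486 ± 0.0488 TPM (SD, n = 7) was 2.62% of the WT mean of 1.85 ± 0.607 TPM (SD, n = 7), with a log2 change of -1.42 ± 0.16 (SE). The next lowest library was CD33-SNP 2 at 0.6 TPM, beside CD33-SNP 1 at 2.32 TPM. In SORL1-KO, 0.0202% of genes tested (3 genes) lay below every library of all other groups; they were ZNF717, MMADHC and CAT, which encodes catalase.

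ZNF283 (ENSG00000167637; chromosome 19, 43827292 to 43852017, plus strand) was not low in a single line alone. SORL1-KO ranged from 1.18 to 2.06 TPM with a median of 1.31, below the whole WT range of 2.84 to 4.34 TPM (median 3.61). The mean of 1.47 ± 0.354 TPM (SD, n = 7) was 39.9% of the WT mean of 3.69 ± 0.535 TPM (SD, n = 7), with a log2 change of -0.93 ± 0.13 (SE). In SORL1-A528T, however, 6 of 7 libraries were also below the lowest WT library, and the range of 0.96 to 3.72 TPM spanned that of SORL1-KO. The 2 CD33-SNP libraries, at 2.39 and 2.04 TPM, were below all WT libraries as well, whereas INPP5D-SNP, at 3.59 and 3.74 TPM, lay inside the WT range. In TREM2-R47H 2 libraries were below the lowest WT library, the lowest at 1.83 TPM and so inside the SORL1-KO range. In TREM2-KO 3 libraries were below the lowest WT library. In SORL1-KO, 0.438% of genes tested lay below every WT library, the only such criterion that ZNF283 met.

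**Figure D1:**
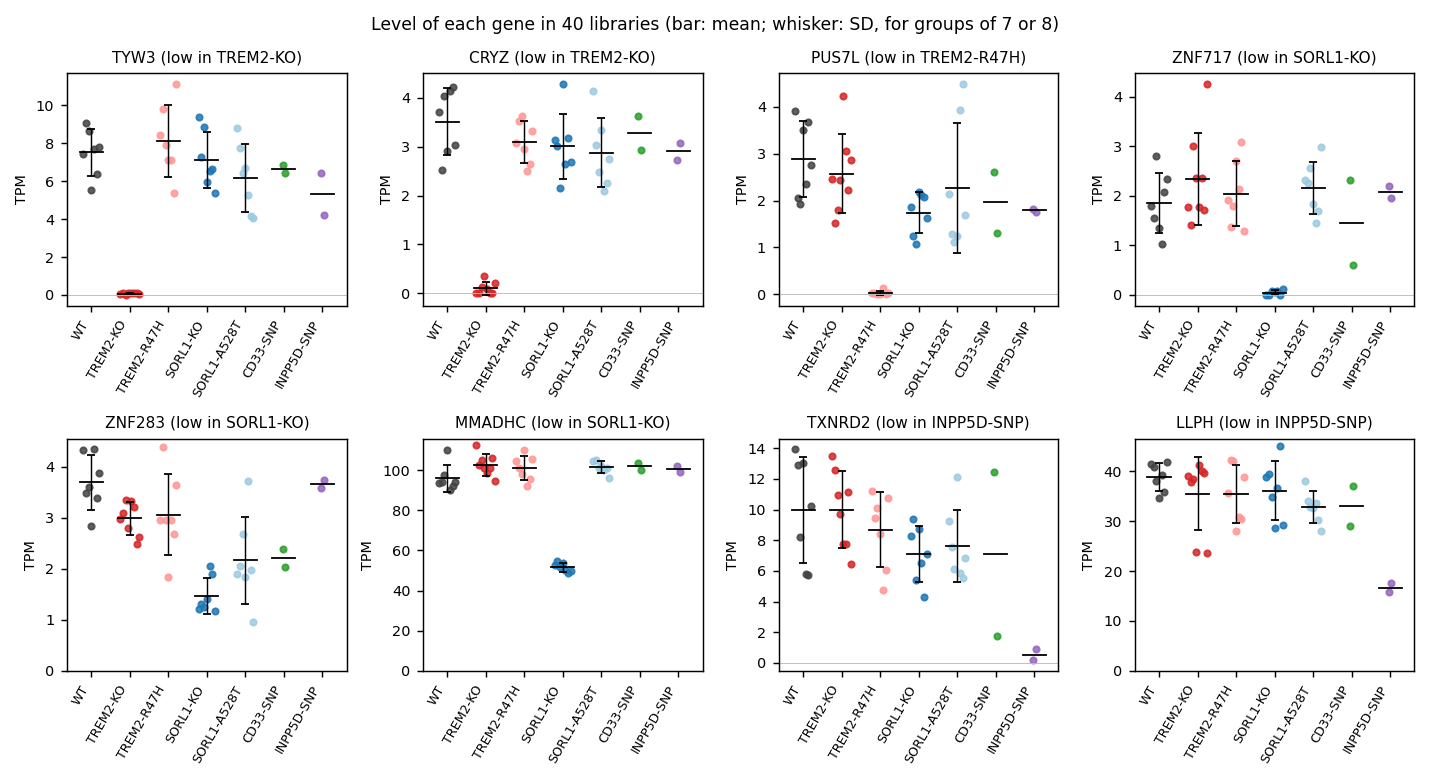
TPM (vertical axis) of each of the 8 genes in the 7 groups (horizontal axis); each point is a library, the bar is the group mean and the whisker the SD, drawn for groups of 7 or 8. TYW3, CRYZ, PUS7L, ZNF717 and TXNRD2 sit near 0 in a single line. MMADHC at 48.86 to 54.81 TPM and LLPH at 15.78 and 17.52 TPM sit apart from all other libraries. ZNF283 in SORL1-KO overlaps SORL1-A528T, CD33-SNP and TREM2-R47H.

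The genes were chosen as near 0 or about halved, so their 2 size classes come from the choice. In the first class TYW3, CRYZ, PUS7L, ZNF717 and TXNRD2 stood at 0.948% to 5.36% of WT, and in the second ZNF283, LLPH and MMADHC stood at 39.9%, 42.8% and 53.9%. A position away from the edited gene was also part of the choice. None lies on the chromosome of the gene edited in its line: TREM2 is on chromosome 6, SORL1 on 11 and INPP5D on 2, where MMADHC, low in SORL1-KO, also lies. A line mean under 10% of WT with every library below all other groups was met by 4 genes in TREM2-KO (0.0269%), 4 in TREM2-R47H (0.0269%), 2 in SORL1-KO (0.0135%) and 3 in INPP5D-SNP (0.0202%), and by none in SORL1-A528T or CD33-SNP. Beside the genes above, those in the first 3 of these lines were TREM2 itself and WIPF3 in TREM2-KO, IRAK4, CXCL1 and MIR124-1HG in TREM2-R47H, and CAT in SORL1-KO. Both genes of the pairs TYW3 and CRYZ, and PUS7L and IRAK4, are among them, with TYW3, CRYZ and PUS7L there by choice. A mean between 0.3 and 0.7 of WT with every library below all other groups was met in SORL1-KO by MMADHC alone (0.00673%), in INPP5D-SNP by 3 genes with LLPH among them (0.0202%), in TREM2-KO by 11 (0.0740%), in TREM2-R47H by 24 (0.162%) and in CD33-SNP by 2 (0.0135%). No partner of these genes met it too. Both criteria are easier to meet in the lines of 2 libraries, CD33-SNP and INPP5D-SNP, so their counts cannot be set against those of the larger lines.

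In the lines other than its own, no gene of the 8 passed the test against WT. In limma, 0 of 40 such values had an adjusted p below 0.05, and 7 had an unadjusted p below 0.05. By line that was 0 of 6 genes in TREM2-KO, 0 of 7 in TREM2-R47H, 0 of 5 in SORL1-KO, 0 of 8 in SORL1-A528T, 0 of 8 in CD33-SNP and 0 of 6 in INPP5D-SNP. Over all genes tested the shares called in either direction were 1.61%, 11.4%, 1.09%, 0.0471%, 0% and 0.0337% in that order. The 7 with an unadjusted limma p below 0.05 fell as 1, 0, 1, 2, 2 and 1 over these lines. Of the 14855 genes tested, 1573, 3506, 1607, 884, 621 and 1087 had such a p. All of these comparisons use the 7 WT libraries that also served in choosing the genes. The genes were also sought as low in single lines, so the lack of calls in other lines follows in part from the choice. The lowest p was for ZNF283 in SORL1-A528T, at 58.5% of WT and a log2 change of -0.61 ± 0.13 (SE), with an adjusted p of 0.0664 and an unadjusted p of 4.91e-05. With the library number as a block its adjusted p was 0.0168 in limma, although the numbers did not pair the libraries of these groups. ZNF283 in CD33-SNP had a log2 change of -0.54 ± 0.20 (SE, n = 2) and an unadjusted limma p of 0.00954. PUS7L in SORL1-KO, with -0.49 ± 0.18 (SE), had an adjusted p of 0.205, and 0.0362 with the block. TYW3 in INPP5D-SNP, at 6.42 and 4.23 TPM, had a log2 change of -0.44 ± 0.21 (SE), with an adjusted limma p of 0.667, and of 0.044 with the block. For SORL1-KO and INPP5D-SNP too, the numbers were not held to pair the libraries with those of WT.

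**Figure D2:**
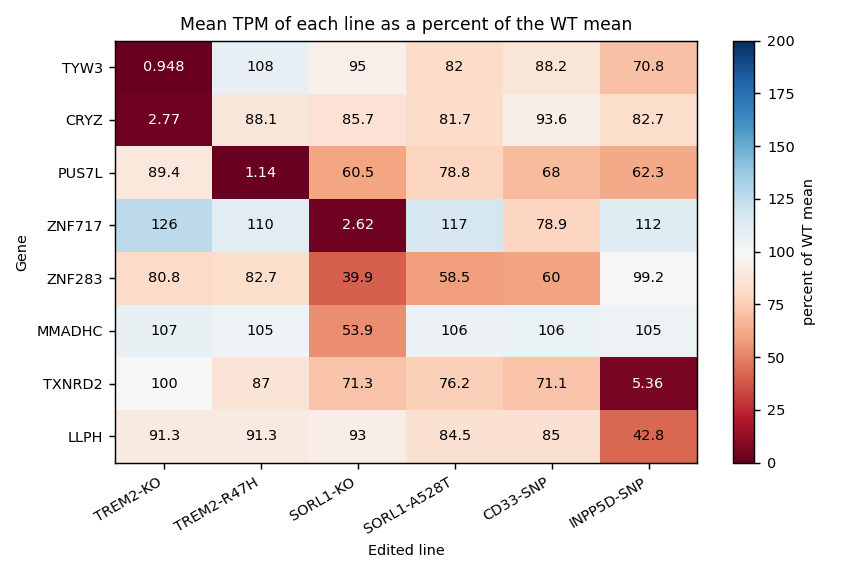
Mean TPM of each gene (rows) in each edited line (columns) as a percent of its WT mean, printed in each cell and coloured from 0 to 200%. Each row has its lowest value in the gene's own line by definition, from 0.948% for TYW3 to 53.9% for MMADHC. ZNF283 is also at 58.5% in SORL1-A528T and 60.0% in CD33-SNP.

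Of these 4 pairs, both genes were near 0 in the same line for TYW3 and CRYZ and for PUS7L and IRAK4, and not for the other 2. LLPH and ZNF283 were chosen as about halved, so for their pairs the choice excluded it. For TYW3 and CRYZ this comes from the choice, since both were selected as near 0. IRAK4 (ENSG00000198001; chromosome 12, 43758944 to 43789543, plus strand) is the kinase that carries signals from Toll-like and interleukin-1 receptors, and its start lies 127 bp from that of PUS7L in GENCODE. It was at 0, 0.02, 0.2, 0.04, 0.18, 0.21 and 0.12 TPM in TREM2-R47H libraries 1 to 7, against 4.87 to 7.38 TPM in WT (median 6.47). No TREM2-R47H library approached the WT range. The mean was 0.110 ± 0.0896 TPM against 6.34 ± 0.914 TPM, a log2 change of -2.72 ± 0.22 (SE) with an adjusted limma p of 9.33e-11. Its loss was known from earlier results of these data.

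The library kit was directional, but the sources used here do not say whether the counting used strand, so reads in the overlaps of TYW3 with CRYZ and LLPH with LLPH-DT may not be assigned to a single gene.

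In the other 2 of these 4 pairs, LYPD5 and LLPH-DT were not called. LYPD5, a member of the Ly6 family of membrane-anchored proteins whose start lies 86 bp from that of ZNF283, averaged 1.12 ± 0.712 TPM in SORL1-KO and 0.896 ± 0.356 TPM in WT, with overlapping ranges and an adjusted limma p of 0.883. LLPH-DT, a noncoding transcript, was at 0.15 and 0.6 TPM in INPP5D-SNP against 0.44 to 1.51 TPM in WT, with a log2 change of -0.45 ± 0.27 (SE) and an adjusted limma p of 0.667. MMADHC-DT, whose start lies 620 bp from that of MMADHC, did not reach the level needed for the test and averaged 0.129 ± 0.0884 TPM in SORL1-KO and 0.261 ± 0.171 TPM in WT. ZNF717 has no annotated gene in the table that starts on the opposite strand within 1 kb.

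Pairs also varied together to unequal degrees outside the line in which they were chosen. Pearson's r between the 2 genes of a pair, on deviations of log2(TPM + 1) from the group means, was 0.59 for PUS7L and IRAK4 (33 libraries). It was 0.27 for TYW3 and CRYZ (32 libraries), 0.25 for ZNF283 and LYPD5 (33) and -0.31 for LLPH and LLPH-DT (38). Without the 2 small groups and libraries 5 and 6 these values were 0.63 (21), 0.18 (20), 0.32 (21) and -0.29 (26). The points share libraries, and the values are given as a description.

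**Figure D3:**
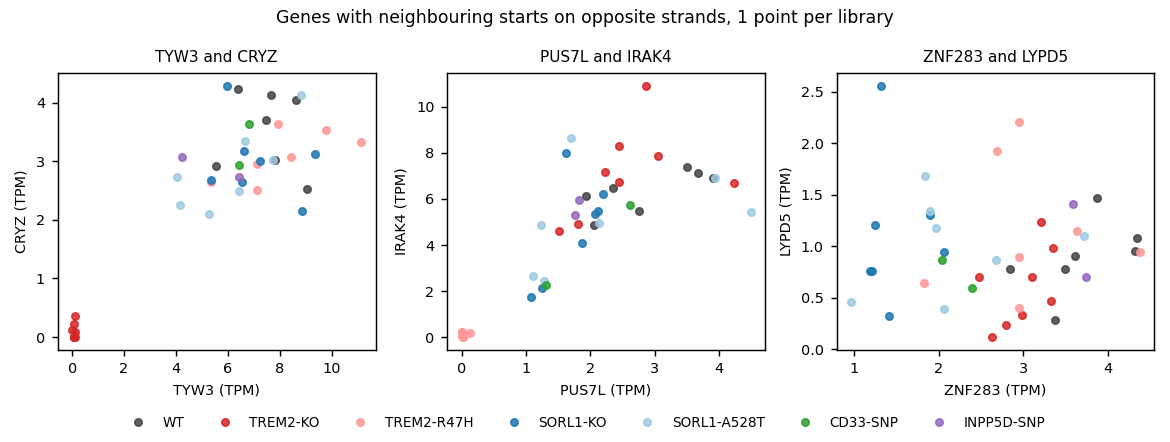
TPM of 2 genes with neighbouring starts on opposite strands, 1 point per library, coloured by group. Both genes of the first 2 pairs are near 0 in the same libraries (TREM2-KO and TREM2-R47H), and LYPD5 spans the same levels where ZNF283 is low. TYW3, CRYZ and PUS7L were chosen for those low values.

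Genes farther along the chromosome were not called. Within 1 Mb of TYW3 and CRYZ, 0 of 3 other expressed genes were called in TREM2-KO (background 1.33% called lower), with 1 at an unadjusted limma p below 0.05. The nearest on the one side was FPGT, with a log2 change of -0.01 ± 0.15 (SE), and on the other ACADM, the medium-chain acyl-CoA dehydrogenase, with -0.18 ± 0.06 (SE) and an adjusted limma p of 0.0952. Around PUS7L, IRAK4, whose loss was known beforehand, was the 1 gene of 3 called lower in TREM2-R47H (background 8.77%). TWF1 and TMEM117, the next genes on the IRAK4 side, had log2 changes of -0.09 ± 0.08 and 0.18 ± 0.16 (SE), and neither reached an unadjusted p of 0.05. In SORL1-KO, 0 of 41 expressed genes beyond 1 kb and within 1 Mb of ZNF717, ZNF283 and MMADHC were called (background 0.835% called lower), with 1 at an unadjusted limma p below 0.05.

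MMADHC is isolated, its nearest expressed neighbours being EPC2 at -0.08 ± 0.08 and RND3 at -0.24 ± 0.27 (log2 change, SE). Beside ZNF717 on the downstream side lay the pseudogenes FAM86DP at 0.10 ± 0.22 and HNRNPA3P6 at -0.23 ± 0.15. ZNF283 lies in a dense cluster, and the 37 expressed genes beyond 1 kb had changes between -0.33 and 0.43 with a median of -0.02. Among them were ZNF45 downstream, at -0.01 ± 0.09, and the potassium channel gene KCNN4 upstream, at 0.02 ± 0.37. Around TXNRD2 and LLPH, limma called 0 of the 39 expressed genes beyond 1 kb in INPP5D-SNP (background 0.0269% called lower), and around TXNRD2 it gave 2 of 33 an unadjusted p below 0.05. With the library number as a block, 8 of the 39 were called. The 33 genes around TXNRD2 ranged in log2 change from -0.97 to 0.43 with a median of -0.13. The lowest 3, picked out after their values were seen, were CDC45 at -0.97 ± 0.53 (SE) and 48.7% of the WT mean, RANBP1 at -0.78 ± 0.49 and 57.6%, and ZNF74 at -0.53 ± 0.16 and 65.3%, with adjusted limma p-values of 0.667, 0.667 and 0.606. GNB1L and RTL10, downstream of TXNRD2, had log2 changes of -0.16 ± 0.20 and -0.42 ± 0.18 (SE), and ARVCF, upstream, had -0.30 ± 0.20. TMBIM4 beside LLPH had a change of 0.07 ± 0.16, and IRAK3, the next gene, 0.28 ± 0.41. Neighbours of LLPH beyond 1 kb ranged from -0.01 to 0.28, with 0 of 6 at an unadjusted limma p below 0.05.

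**Figure D4:**
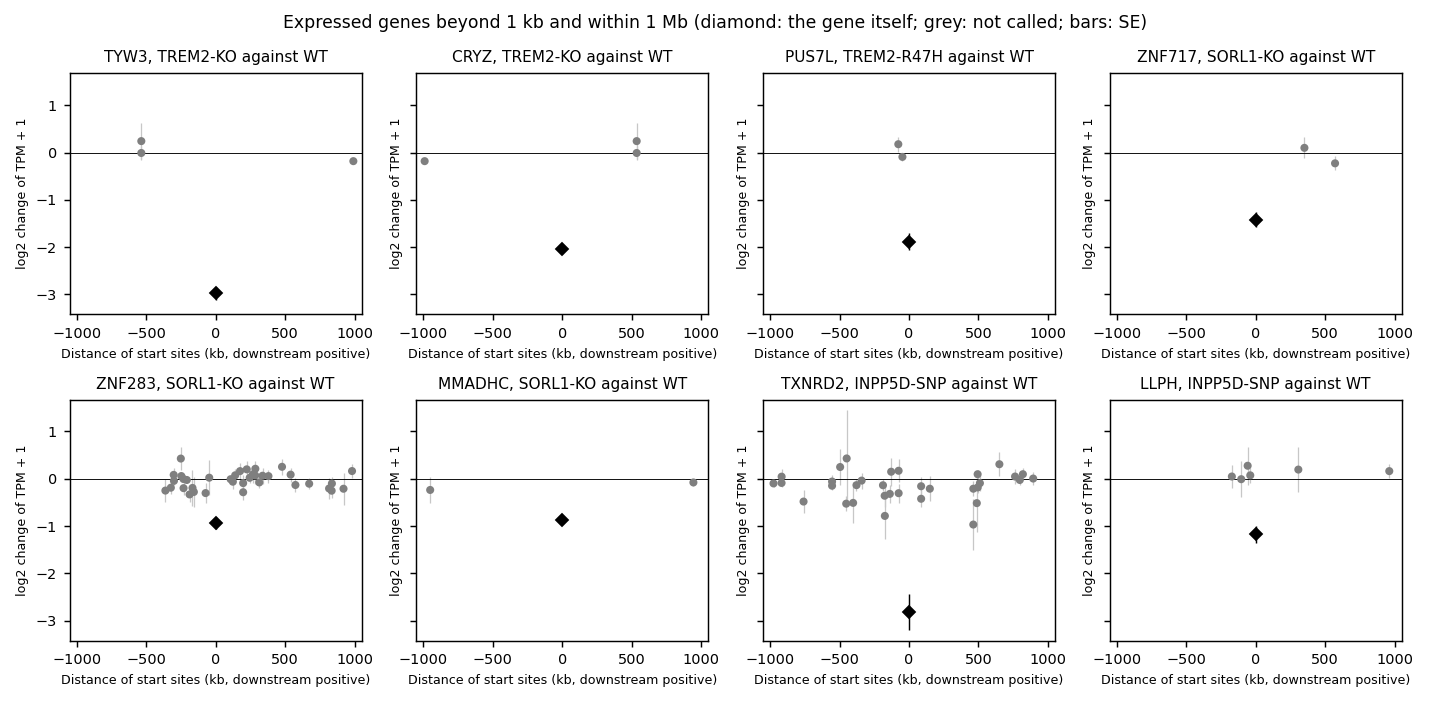
Log2 change of TPM + 1 against WT (vertical axis, bars: SE) of expressed genes beyond 1 kb and within 1 Mb, by distance of their start from that of each of the 8 genes (horizontal axis, kb). Black diamonds are the gene itself and grey points its neighbours, none of which was called in limma in the panels drawn.

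Lists of genes that share a function with each of the 8 were examined in the line of that gene. No listed gene was called in any of them in the fit of all libraries. Over all genes tested, that fit called 1.61% in TREM2-KO, 11.4% in TREM2-R47H, 1.09% in SORL1-KO and 0.0337% in INPP5D-SNP. Of the wybutosine pathway, 5 other genes were expressed, among them TYW1 and LCMT2, with a median log2 change in TREM2-KO of -0.09 against -0.00 for all genes tested, and 0 had an unadjusted p below 0.05. LCMT2, which acts after TYW3, was at 4.95 ± 1.23 TPM (SD, n = 8) against 5.53 ± 0.955 TPM. Of 10 quinone and related reductases 2 had an unadjusted limma p below 0.05 in TREM2-KO, VAT1 at -0.30 ± 0.09 (adjusted p 0.0813) and PTGR1 at -0.27 ± 0.08 (adjusted p 0.0965), and NQO1, the main cytosolic quinone reductase, was at -0.56 ± 0.28. With the library number as a block, 2 genes of that list were called, and 1 when the 3 libraries that stand apart were left out. Of 12 pseudouridine synthases in TREM2-R47H, 1 was below 0 where 61.7% of all genes were. Their median was 0.13 against -0.06 for all genes, and PUS10 had the lowest p, at 0.22 ± 0.10 with an adjusted limma p of 0.143. Median-ratio scaling and quantile normalization each called 1 gene of that list.

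In SORL1-KO, 14 genes of cobalamin uptake and use had a median log2 change of 0.03 against -0.03 for all genes, and 0 had an unadjusted limma p below 0.05. ABCD4, the lysosomal cobalamin exporter, was at 0.29 ± 0.15 and MTRR, which reactivates methionine synthase, at -0.22 ± 0.17. The 16 expressed zinc finger genes of the cluster around ZNF283 had a median of 0.06, with 0 at an unadjusted p below 0.05 and changes between -0.13 and 0.25. All 10 corepressor genes that KRAB proteins use were below 0 (59.0% of all genes were), with a median of -0.07. The lowest p among them was that of CBX1, a heterochromatin protein, at -0.15 ± 0.06 with an adjusted limma p of 0.201, and 2 of 10 had an unadjusted p below 0.05.

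In INPP5D-SNP, 16 thioredoxin and glutathione genes had a median of -0.11 against -0.01 for all genes, and 0 had an unadjusted limma p below 0.05. TXN, the cytosolic thioredoxin, was at 133.1 ± 11.2 TPM (SD, n = 2) against 185.1 ± 9.44 TPM (SD, n = 7), and TXNIP, its inhibitor, at 216.9 ± 30.4 TPM against 143.8 ± 29.1 TPM. All 21 genes of large subunit assembly listed with LLPH were below 0 in INPP5D-SNP, where 51.5% of all genes were. Their median was -0.57 against -0.01, and 0 of 21 had an unadjusted limma p below 0.05 in the fit of all libraries. Of all 14855 genes tested, 1087 had such a p and 5 were called. When INPP5D-SNP and WT were fitted alone, 11 of the 21 were called, as were 490 of all genes tested. BOP1, needed for processing of the large subunit rRNA, was at 23.4 ± 1.25 TPM (SD, n = 2) against 42.9 ± 6.11 TPM (SD, n = 7), with -0.83 ± 0.48 (SE) and an adjusted p of 0.667. The summed level of the 21 genes was 622.0 and 665.9 TPM in INPP5D-SNP and 771.9 to 965.3 TPM in WT. It was lower still in single libraries of other lines, down to 405.5 TPM in TREM2-KO, 427.8 TPM in SORL1-KO and 483.3 TPM in SORL1-A528T. The lowest LLPH values of these lines were 23.68, 28.7 and 28.03 TPM in that order. These are the lowest values of each line and need not come from the same library.

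**Figure D5:**
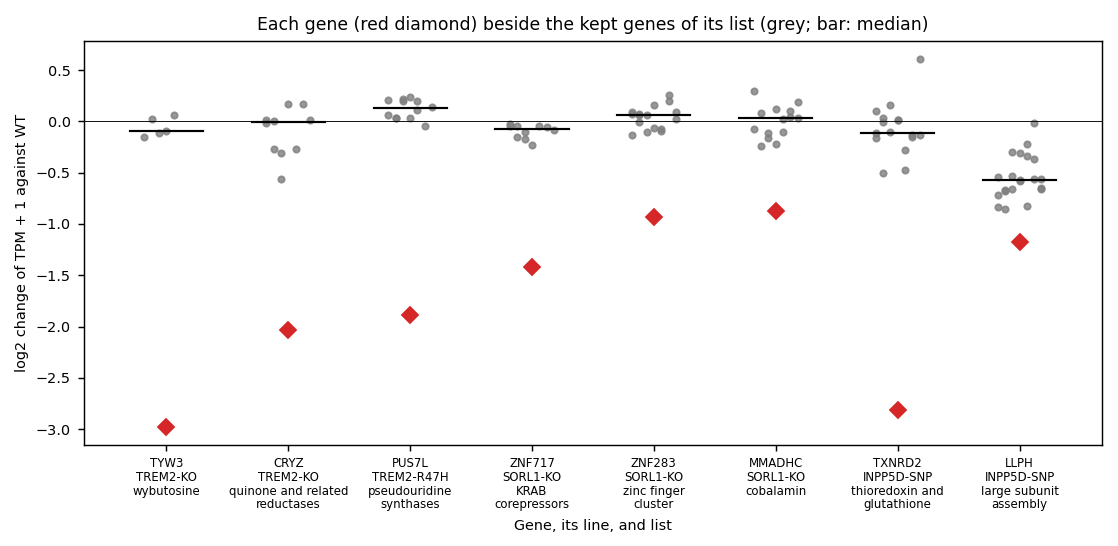
Log2 change of TPM + 1 against WT (vertical axis) of each of the 8 genes (red diamond) and of the other expressed genes of its list (grey points; bar: median) in the line named below each (horizontal axis). In large subunit assembly in INPP5D-SNP all 21 genes lie below 0 with a median of -0.57, as do all 10 KRAB corepressors in SORL1-KO with a median of -0.07, whereas 1 of 12 pseudouridine synthases in TREM2-R47H does. The other lists have genes on both sides of 0. Each of the 8 genes, chosen as low in the line shown, lies below all genes of its list.

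Likeness of pattern was measured over all 40 libraries. Pearson's r of log2(TPM + 1) was highest for TYW3 with CRYZ (0.96), TREM2 (0.94) and CD109 (0.93), and for CRYZ with TYW3, TREM2 (0.95) and CD109 (0.89). PUS7L was most like IRAK4 (0.92), ANXA6 (0.91) and NOTCH1 (0.90). ZNF717 was most like MMADHC (0.86), CAT (0.85) and PURPL (0.72), and MMADHC was most like CAT (0.89), ZNF717 and ENTPD5 (0.71). LLPH was most like ING5 (0.79), TRMT61A (0.78) and AKAP1 (0.78). ZNF283 had no close match, the highest values being OPN3 (0.62), TAP2 (0.60) and TMX2P1 (0.60). The low line enters each value, and the values are a description.

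The labels and the libraries were checked as a whole. TREM2 was at 35.3 ± 8.39 TPM (SD, n = 8) in TREM2-KO against 457.0 ± 120.2 TPM (SD, n = 7) in WT, and SORL1 at 16.1 ± 3.00 TPM (SD, n = 7) in SORL1-KO against 33.3 ± 9.74 TPM; both were called lower, and CD33 and INPP5D were not called in their own lines. All 13 markers of microglia and macrophages were expressed, with summed levels of 5518 to 11435 TPM over all libraries, and the 5 pluripotency markers summed to at most 0.57 TPM. Of the 13, AIF1, ITGAM and C1QA were called lower and GPR34 higher in TREM2-R47H. GPR34 was also called higher in SORL1-KO, and in TREM2-KO only TREM2 was called. In the other lines none was called. Stromal and endothelial markers summed to 188.7 to 3205 TPM in WT and to 834.5 and 2198 TPM in INPP5D-SNP. They summed to 194.3 to 464.9 TPM in TREM2-KO, 134.0 to 271.5 in TREM2-R47H and 145.6 to 424.1 in SORL1-KO. PECAM1 alone averaged 264.8, 144.1 and 214.8 TPM in TREM2-KO, TREM2-R47H and SORL1-KO. In WT it averaged 236.4 TPM and in INPP5D-SNP 280.0 TPM. Of the 9 expressed stromal and endothelial markers, 3, 5 and 3 were called lower in TREM2-KO, TREM2-R47H and SORL1-KO. The part of these markers in the results was not tested. Libraries TREM2-KO 8, SORL1-KO 7 and SORL1-A528T 7 stood apart from their groups, and leaving them out turned no direction and changed no call among the 8 genes in these 3 lines. Libraries numbered 5 and 6 also stood apart in every larger group, and without them IRAK4 was still called. With the number as a block, the calls over all genes rose from 239 to 587 in TREM2-KO and from 1693 to 2906 in TREM2-R47H. In both lines the numbers were held to pair the libraries, by weak correlations. In TREM2-R47H the calls were 390 higher and 1303 lower, but 603 and 829 after median-ratio scaling.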

How the data were processed

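The authors deposited TPM values, 1 column per library, and per the submitters' processing notes used cutadapt 1.18, STAR 2.7, RSEM 1.3.1 and DESeq2. The sources used here name no build, annotation or strand setting. Column sums of the 60504 genes run from 999999.15 to 1000000.76, no counts are at hand, and counting error is unknown; per the labels' protocols, libraries had 39.2 to 64.6 M reads (mean 45.13 M). GENCODE release 29 (GRCh38) supplied positions for 94.2% of the Ensembl IDs, and start windows and motifs come from the RefSeq table (GRCh38.p14), which uses its own start sites.

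Groups came from the labels. The test was limma 3.58.1 (R 4.3.3) applied to log2(TPM + 1), with trended and robust variance and 7 group means for all 40 libraries, without covariates. A gene counted as expressed, and was tested, if 7 or more libraries reached 1 TPM (14855 genes). Two-sided p-values had Benjamini-Hochberg adjustment over these, and an adjusted p below 0.05 is a call. A log2 change on this scale understates the change of low genes. The procedure was tested on simulated data.

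The 8 genes and the lists were chosen with earlier results of these data known. Named beside them are the nearest expressed gene on each side, genes starting within 1 kb, called genes within 1 Mb, copies found by blastn 2.17.0, up to 4 listed genes with the lowest p, the 3 genes most alike over libraries, and the edited genes; others were chosen after their values were seen. Not every gene named by this rule is reported here.

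Library numbers, taken from the labels, were held to pair libraries where residuals of every shared number correlated above 0.1. That held for TREM2-KO (0.11 to 0.31) and TREM2-R47H (0.14 to 0.28) against WT, and not for the other lines. The best match had its own number for 3 of 7 shared numbers in TREM2-KO and 4 of 7 in TREM2-R47H. Alternatives were pseudocounts of 0.1 and 5 TPM, no filter, median-ratio scaling, quantile normalization, the 2 groups alone, the number as a block, and each library of CD33-SNP or INPP5D-SNP left out in turn. Leaving out 3 libraries that stand apart, leaving out libraries 5 and 6, and the block in the 2 groups alone were added after seeing the data.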

Additional observations from a re-analysis of the deposited data

Results flagged for a closer look

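Over 45 sets of a gene in a group of 7 or 8 libraries, 3 had a library far from the rest by Dixon's criterion, and chance gives about 1 in 20. TYW3 in TREM2-KO library 3 was at 0 TPM, with the nearest other library of that line at 0.06 TPM. PUS7L in TREM2-R47H library 5 was at 0.13 TPM, with the nearest at 0.04 TPM. Both differences are a few hundredths of a TPM, near the 2 decimals of the table. MMADHC in WT library 4 was at 110.17 TPM, above the next at 97.33 TPM, and the SORL1-KO libraries lay below every WT library with or without it.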

How the results depend on the processing

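The own-line changes of all 8 genes kept their sign under all alternatives. With pseudocounts of 0.1 and 5 TPM they were -5.49 and -1.30 for TYW3, -4.42 and -0.74 for CRYZ, -4.50 and -0.64 for PUS7L, -3.72 and -0.44 for ZNF717, -1.29 and -0.42 for ZNF283, and -4.19 and -1.40 for TXNRD2. LLPH was -1.02 with 5 TPM and -1.29 with the block; MMADHC ranged from -0.89 to -0.83. IRAK4, whose loss was known beforehand, was called under every alternative.

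With the number as a replicate block in the fit of all libraries, genes called numbered 587 in TREM2-KO, 2906 in TREM2-R47H, 735 in SORL1-KO, 127 in SORL1-A528T, 38 in CD33-SNP and 1567 in INPP5D-SNP, against 239, 1693, 162, 7, 0 and 5 (621 in CD33-SNP at an unadjusted limma p below 0.05). The block also called 2 genes of the CRYZ list, 3 of TXNRD2's, 7 of LLPH's, 1 of ZNF717's and 8 neighbours of TXNRD2 and LLPH beyond 1 kb. The numbers were held to pair libraries with those of WT in TREM2-KO and TREM2-R47H only. In fits of 2 groups alone, the block gave 495, 2728, 97 and 4 for the first 4 lines and 1 gene of the CRYZ list; it was not run so for lines of 2 libraries. Without the block, fits of 2 groups alone called 159 in TREM2-KO, 52 in SORL1-KO, 4 in SORL1-A528T, 490 in INPP5D-SNP, 2 such neighbours there, and 2 and 11 genes of the TXNRD2 and LLPH lists.

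Without the filter, calls were 67 in SORL1-KO, 4 in SORL1-A528T, 209 in CD33-SNP and 373 in INPP5D-SNP. SORL1-A528T had 4 with either pseudocount and 16 after quantile normalization, and INPP5D-SNP 8 with 5 TPM. Leaving out libraries 5 and 6 gave 1005 in TREM2-R47H, 39 in SORL1-KO, 4 in SORL1-A528T and 11 in INPP5D-SNP. Leaving out the 3 libraries that stand apart called 1 gene of the CRYZ list, and each scaling called 1 of the PUS7L list. Quantile normalization split SORL1-KO into 70 higher and 104 lower, against 38 and 124. Leaving out either INPP5D-SNP library gave 4 calls, -3.16 to -2.46 for TXNRD2 and -1.25 to -1.10 for LLPH. The lone library is then assumed to vary like the other groups. Of 393 values of the 8 genes in other lines, 5 were called under an alternative, among them MMADHC in TREM2-R47H at 0.15 (adjusted p 0.0467) and 0.16 (0.00641) after the 2 scalings. The cause of these shifts was not tested.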
